A study of Mus musculus with 9 samples.

Results

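Potassium channel genes were examined in RNA bound to ribosomes of neurons from the medial prefrontal cortex (mPFC) of adult C57BL/6 mice. The members were the genes whose symbol begins with Kcn, letters and a digit, leaving out symbols that end in os or -ps, and 96 of 47593 genes by symbol met this rule. Of these, 93 are protein-coding and 3 are antisense RNAs that the name rule also caught (Kcnmb4os1, Kcnmb4os2 and Kcnq1ot1). RiboTag immunoprecipitation recovers RNA on ribosomes by an antibody against a tag on a ribosomal protein, and libraries were of stranded total RNA. There were 3 groups of 3 libraries: sleep with GFP (green fluorescent protein) overexpressed in the mPFC, enforced wake with GFP, and enforced wake with a GFP fusion of Fxr1, a relative of the fragile X protein that binds RNA. All groups thus carried an overexpressed protein, and sleep with Fxr1 was not analysed here, so Fxr1 is compared with GFP within enforced wake only. The labels do not give the driver of the ribosomal tag. Nothing in the labels says that replicates came from separate animals, so p-values measure the spread between these libraries, which may be technical.

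Potassium channels let potassium leave the cell, and so bring the membrane back to rest after an action potential and set how readily a neuron fires. Voltage-gated (Kv) channels open on depolarisation, BK and SK channels open with calcium, inward rectifiers (Kir) and 2-pore-domain (K2P) channels hold the resting potential, and auxiliary subunits change the gating or delivery of the pore subunits. In cortical neurons, potassium currents shape the slow oscillations of sleep as well as firing in wake.

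The selectivity filter, the loop of the pore that passes potassium, is encoded by a short run of bases in every pore subunit. It is shown here for 3 pairs of related subunits, chosen after their values were seen because in each pair the first rose and the second fell in enforced wake. The stretches come from the GENCODE annotation of GRCm38, each within 1 exon, 5′ to 3′ on the coding strand, with the 15 bases of the filter motif in capitals. For the EAG-family pair they lie at chr15:99232893-99232979 (Kcnh3, plus strand) and chr2:62777307-62777393 (Kcnh7, minus strand), for the Kir pair at chr15:79485331-79485417 (Kcnj4, minus) and chr2:55437591-55437677 (Kcnj3, plus), and for the silent Kv pair at chr2:168262605-168262691 (Kcng1, minus) and chr15:45109253-45109339 (Kcnv1, minus).
Kcnh3: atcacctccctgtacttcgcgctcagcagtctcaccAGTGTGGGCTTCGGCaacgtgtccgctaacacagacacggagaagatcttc
Kcnh7: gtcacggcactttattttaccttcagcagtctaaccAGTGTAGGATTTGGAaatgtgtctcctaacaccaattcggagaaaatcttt
Kcnj4: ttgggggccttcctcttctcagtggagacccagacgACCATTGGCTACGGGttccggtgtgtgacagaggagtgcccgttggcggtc
Kcnj3: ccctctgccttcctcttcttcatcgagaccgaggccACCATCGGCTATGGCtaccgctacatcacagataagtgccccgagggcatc
Kcng1: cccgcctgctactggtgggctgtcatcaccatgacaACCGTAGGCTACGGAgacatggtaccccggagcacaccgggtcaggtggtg
Kcnv1: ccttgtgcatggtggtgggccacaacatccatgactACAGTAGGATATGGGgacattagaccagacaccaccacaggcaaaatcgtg

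The pairs differ in base composition, with which the differences below also varied. The coding sequence held 60.9% G and C in Kcnh3 and 45.3% in Kcnh7, 59.6% in Kcnj4 and 50.6% in Kcnj3, and 61.0% in Kcng1 and 51.5% in Kcnv1. Over the longest transcript the contrast was wider, at 61.2% and 39.6% for Kcnh3 and Kcnh7, 59.3% and 43.9% for Kcnj4 and Kcnj3, and 57.6% and 41.0% for Kcng1 and Kcnv1. In all 3 pairs the subunit that rose in enforced wake was the one richer in G and C. The pairs were chosen by their direction, so this adds nothing to the trend over all members given below.

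Values are FPKM, fragments scaled by transcript length and by the mapped fragments of the library, summed over the transcripts of a gene. Depth estimated from the steps of the low values was 2.99e7 to 3.74e7 fragments per library. Fxr1 itself had 31.0 to 34.8 FPKM in the 6 GFP libraries and 67.7 to 91.1 in the 3 Fxr1 libraries. Fxr1 library 1 stood apart on the first principal component of all genes, with a score of 63.1 against -30.6 to 13.1 in the others. A library's deviations from the mean rose with GC content in enforced wake (Spearman 0.641 to 0.715 across genes), fell with it in the Fxr1 libraries (-0.795 to -0.248) and differed in sign between sleep libraries (-0.380 to 0.253). The main results are therefore also given without Fxr1 library 1 and with this trend removed. Of the 6 marker lists of 6 genes each, none had a gene with a mean under 0.5 FPKM. Markers summed to 536 to 904 FPKM over the 9 libraries for excitatory neurons, 309 to 391 for inhibitory neurons, 138 to 246 for astrocytes, 92.2 to 156 for oligodendrocytes, 10.1 to 18.9 for microglia and 15.1 to 21.7 for endothelial and mural cells, so RNA of other cells was present beside that of neurons. In such pooled RNA, fewer cells of a type and less RNA per cell cannot be told apart.

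The members together took 0.337% to 0.362% of total FPKM in each library. Over the 9 libraries 69 members had a mean of at least 0.5 FPKM and 36 of at least 10, while 27 were lower and 5 of those were listed at 0 throughout (Kcna7, Kcnj1, Kcnk16, Kcnk18 and Kcnmb3). FPKM are scaled by length and can be set side by side between genes, though the trend with GC content given above is not taken out. The most abundant member was Kcnab2, a cytoplasmic beta subunit of Kv1 channels, at a mean of 77.8 FPKM, with Kcnab1 at 35.8. It also varied widely, from 26.3 FPKM in Fxr1 library 1 to 105 in an enforced wake library.

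**Figure D1:**
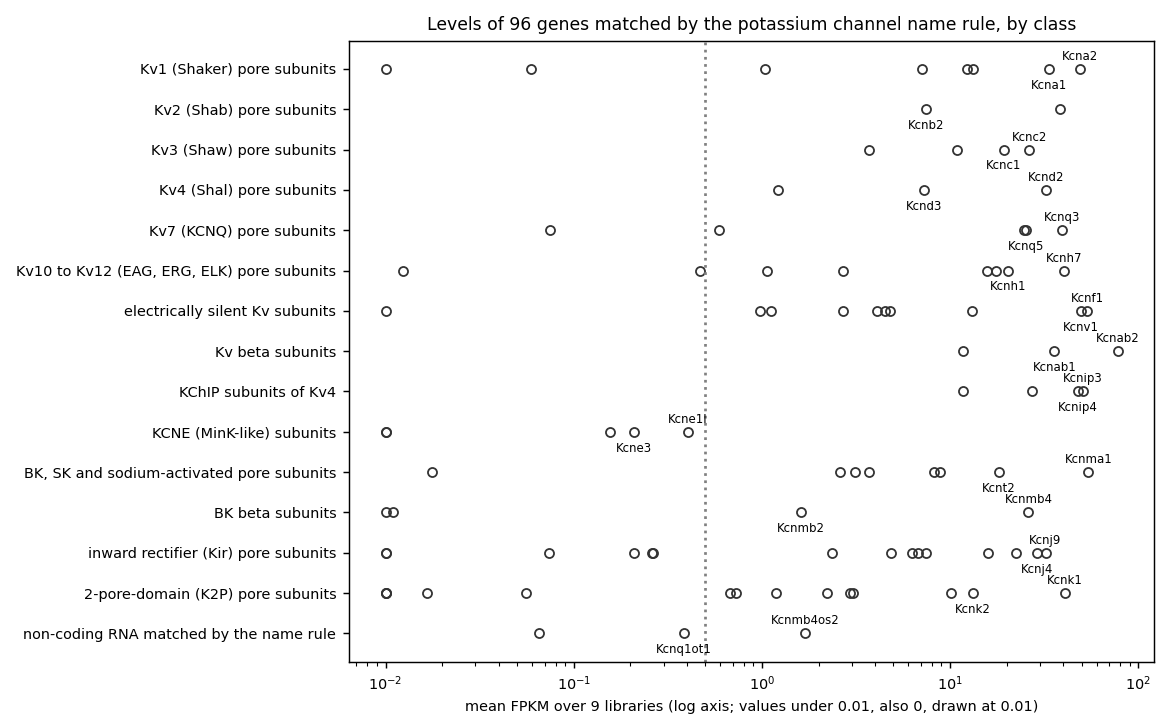
Mean FPKM over the 9 libraries (log axis) of the 96 genes, 1 point per gene and 1 line per class, with up to 2 of the highest genes of each class named. The dotted line is 0.5 FPKM; every class but the KCNE subunits has a member to its right, and Kcnab2 is the highest.

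Among Kv pore subunits, the axonal Kv1 subunits Kcna2 and Kcna1 had means of 49.1 and 33.7 FPKM. Kcnb2, a Kv2 subunit of the delayed rectifier, had 7.47. The Kv3 subunits of fast-spiking cells were led by Kcnc2 at 26.3 and Kcnc1 at 19.4, and the Kv4 subunits of dendritic A-type current by Kcnd2 at 32.4 and Kcnd3 at 7.30.

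The Kv7 subunits Kcnq3 and Kcnq5, which carry the M-current that muscarinic receptors shut, had 39.3 and 25.4 FPKM. Kcnh7 and Kcnh1, of the ERG and EAG branches, had 40.5 and 20.3. Electrically silent subunits, which form channels only together with Kv2 subunits, were led by Kcnf1 at 53.5 and Kcnv1 at 49.6. The means of these 2 silent subunits over the 9 libraries were thus no lower than that of Kcna2. In enforced wake, however, Kcnv1 at 39.7 to 42.8 FPKM lay below Kcna2 at 43.9 to 47.7.

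Among auxiliary subunits, the calcium-binding Kv4 partners Kcnip3 and Kcnip4 had 50.9 and 47.9 FPKM. The KCNE subunits were close to absent, with Kcne1l at 0.405 and Kcne3 at 0.209. The BK beta subunit Kcnmb4 had 26.1 and Kcnmb2 had 1.60, while the BK pore subunit Kcnma1 had 54.3 and the sodium-activated Kcnt2 had 18.1. Kcnma1 was among the steadiest, at 51.8 to 57.3 FPKM over all 9 libraries.

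Of the inward rectifiers, Kcnj9, a subunit of channels opened by G proteins (GIRK), had 32.1 FPKM and Kcnj4, a strong inward rectifier, had 29.1. The K2P subunits were led by Kcnk1 at 40.8 and Kcnk2, a mechanically gated channel, at 13.2. Of the antisense RNAs, Kcnmb4os2 had 1.69 and Kcnq1ot1 had 0.385.

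Enforced wake was compared with sleep in the GFP libraries, to ask which channel RNAs on ribosomes differ between the states. Of 70 members with a mean of at least 0.5 FPKM over these 6 libraries, 25 passed: 15 rose, led by the inward rectifier Kcnj12, and 10 fell, led by the A-type Kv1 subunit Kcna4. The test was limma on log2(FPKM + 1) over all genes, with an adjusted p of at most 0.05. This was 35.7% of the members tested, against 28.3 percent of all 14673 genes tested, of which 15.7 percent were called higher and 12.7 percent lower. The groups did not overlap for 42 members (60.0%), against 49.5 percent of all genes. The members' shares lay somewhat above these backgrounds, and their difference was not tested. The median difference was 0.07 for the members and 0.00 for all genes.

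The direction split followed base composition. Members that rose had a median GC content of 55.8% (44.3% to 69.4%) in their longest transcript, and those that fell had 44.2% (39.3% to 49.6%). Over the 70 members, which share the same libraries, the difference and the GC content had a Spearman correlation of 0.62. After each library's trend with GC content and length was removed, 24 members passed, against 23.8 percent of all genes. Of these 7 were higher and 17 lower, against 10.4 percent and 13.4 percent. The 7 higher were among the 15 (Kcnj12, Kcnk13, Kcng1, Kcnmb4, Kcnk1, Kcnj6 and Kcnip3). Of the 17 lower, 8 were among the 10 (Kcna4, Kcnq5, Kcnj3, Kcnh7, Kcnv1, Kcnb2, Kcnq3 and Kcnh5) and 9 were lower only after removal. The removal takes out real changes that go with GC content too, so both splits are given.

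**Figure D2:**
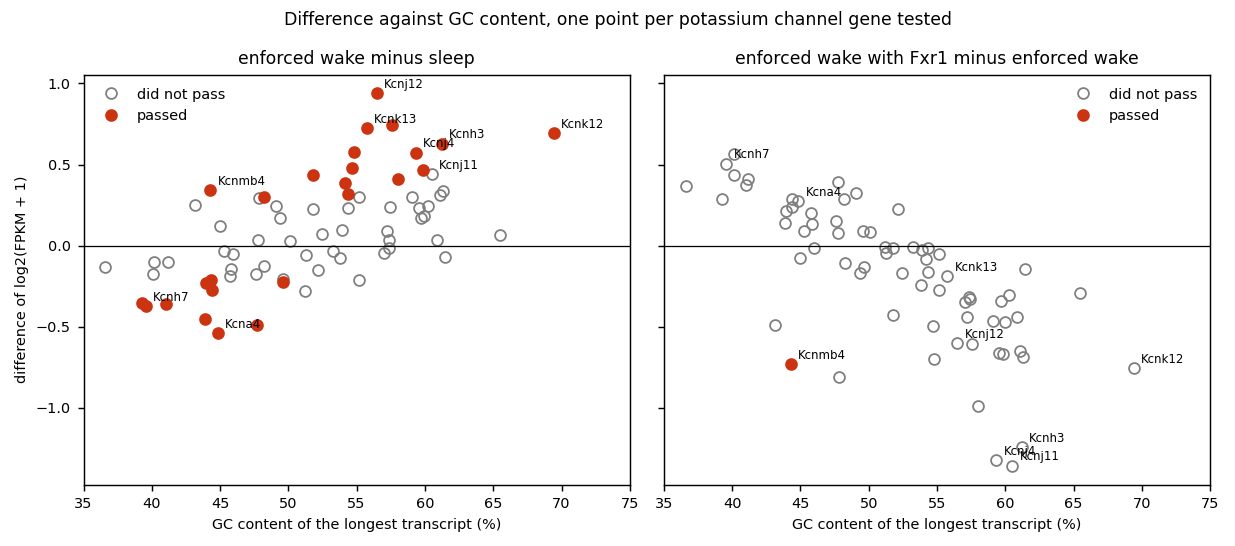
Difference of log2(FPKM + 1) against GC content of the longest transcript (%), 1 point per member tested, for enforced wake minus sleep (left, 70 members) and enforced wake with Fxr1 minus enforced wake (right, 69 members). Filled points passed the limma test, and the points slope upward on the left and downward on the right. Kcnmb4 lies apart from both slopes at the GC content of its longest transcript. Most of its FPKM lay on ENSMUST00000068233 (63.2% G and C).

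Inward rectifiers gave the largest rise. Kcnj12 (ENSMUSG00000042529, GRCm38 chromosome 11, 61022564 to 61071131), a strong inward rectifier, had 4.02, 3.86 and 4.67 FPKM in sleep and 7.83, 9.26 and 9.79 in enforced wake. Every enforced wake library was above every sleep library, and the rise in log2(FPKM + 1) was 0.94 with an SE of 0.10 (limma adjusted p = 0.0030). It kept 0.70 with the GC trend removed (limma adjusted p = 0.0044). The related Kcnj4 had 32.6, 22.1 and 29.6 FPKM in sleep and 38.3, 42.0 and 45.3 in enforced wake, without overlap, a rise of 0.57 (limma adjusted p = 0.029). With the trend removed it was 0.24 (limma adjusted p = 0.0707).

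The GIRK subunits, which carry the slow inhibition by GABA-B and other receptors, moved apart. Kcnj3, the subunit that most neuronal GIRK channels contain, had 20.3, 18.7 and 18.0 FPKM in sleep and 14.2, 13.2 and 13.4 in enforced wake. The groups were well separated, and it fell by 0.45 (limma adjusted p = 0.0068) and by 0.34 with the trend removed. Kcnj6 rose by 0.30, from 19.5 to 20.5 FPKM in the sleep libraries to 23.9 to 26.4, and by 0.33 with the trend removed. Kcnj9 did not pass, at 0.09. In all, 3 of 9 tested Kir members were higher and 1 lower, against 15.7 percent and 12.7 percent of all genes. With the trend removed 2 were higher and 2 lower, against 10.4 percent and 13.4 percent.

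K2P channels carry background potassium current, and 4 of 9 tested were higher and none lower in this comparison, against 15.7 percent and 12.7 percent of all genes. Of the 4, Kcnk12 entered the test only through enforced wake. Kcnk13 (ENSMUSG00000045404, chromosome 12, 99964499 to 100062682) had 0.577, 0.579 and 0.652 FPKM in sleep and 1.69, 1.57 and 1.69 in enforced wake. All 3 enforced wake libraries stood far above the sleep libraries, with a rise of 0.73 (SE 0.07, limma adjusted p = 0.0021) and of 0.49 with the trend removed (limma adjusted p = 0.0096). The values rest on an estimated 53.9 to 63.3 fragments per sleep library and 149 to 157 per enforced wake library. Kcnk13 is best known from microglia. Of 6 microglial markers, with sums of 11.3 to 18.3 FPKM over the sleep libraries and of 15.8 to 18.9 over the enforced wake libraries, 1 was higher (Tmem119), and their part in the result was not tested.

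Kcnk1, the most abundant K2P subunit (ENSMUSG00000033998, chromosome 8, 125995170 to 126030685), had 33.7, 32.7 and 32.6 FPKM in sleep and 44.4, 46.1 and 44.5 in enforced wake. The groups were far apart beside the spread of their replicates (CV 1.84% in sleep and 2.07% in enforced wake), and it rose by 0.44 (SE 0.05, limma adjusted p = 0.0033) and by 0.39 with the trend removed. Kcnk12, a relative of Kcnk13, had 0.441, 0.259 and 0.502 FPKM in sleep and 1.03, 1.57 and 1.21 in enforced wake, a rise of 0.69 (limma adjusted p = 0.0097). Its sleep mean was 0.401 FPKM, under the minimum, and with the highest GC content of the tested members it kept 0.07 when the trend was removed. Kcnk4, a mechanically gated channel, rose by 0.47 and was at 0.13 with the trend removed, where 2 K2P members passed.

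**Figure D3:**
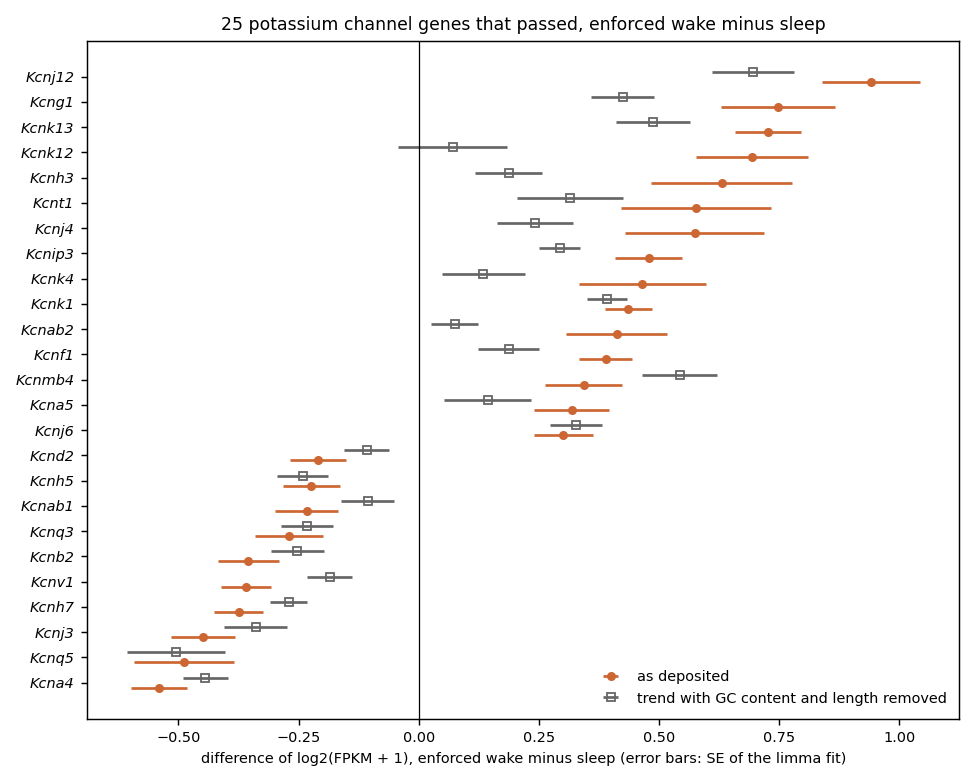
Difference of log2(FPKM + 1), enforced wake minus sleep, of the 25 members that passed, as deposited (filled) and after removal of the GC and length trend (open), with SE of the limma fit. No member changes direction, and after the removal Kcnk12 and Kcnab2 lie closest to 0.

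Of 35 Kv pore subunits tested, 4 were higher and 8 lower, against 15.7 percent and 12.7 percent of all genes. With the trend removed 1 was higher and 13 lower, against 10.4 percent and 13.4 percent, and the difference from other genes was not tested. Kcna4 (ENSMUSG00000042604, chromosome 2, 107290639 to 107298502), the Kv1 subunit that inactivates fast and gives A-type current, had 15.5, 16.1 and 16.2 FPKM in sleep and 11.1, 10.6 and 10.2 in enforced wake. It fell by 0.54 (SE 0.06, limma adjusted p = 0.0030) with a clear gap between the groups, and by 0.44 with the trend removed. The related Kcna2 (-0.15) and Kcna1 (0.03) did not pass, and the low Kcna5 rose by 0.32, which did not pass with the trend removed. Kcnd2 fell by 0.21 and Kcnb2 by 0.35, the latter from 8.22, 8.51 and 8.11 FPKM to 6.15, 6.62 and 6.01. No Kv3 subunit of 4 tested passed, and with the trend removed Kcnc1 passed as lower (-0.39). As deposited its groups overlapped, at 22.0, 19.5 and 21.0 FPKM in sleep and 19.2, 20.7 and 22.1 in enforced wake.

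The M-current subunits fell in part. Kcnq5 had 30.5, 31.8 and 24.4 FPKM in sleep and 19.1, 20.8 and 20.7 in enforced wake, and fell by 0.49 (limma adjusted p = 0.0184). Kcnq3 had 40.1, 44.7 and 39.8 in sleep and 32.6, 33.9 and 36.3 in enforced wake, and fell by 0.27 (limma adjusted p = 0.0316). Neither overlapped between the groups, and both passed with the trend removed, at -0.51 and -0.23.

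In the EAG family, Kcnh7 of the ERG branch had 41.3, 43.8 and 41.9 FPKM in sleep and 32.0, 32.9 and 32.3 in enforced wake. It fell by 0.37 (limma adjusted p = 0.0055), with replicates that differed far less than the groups. Kcnh3 of the ELK branch had 16.1, 11.6 and 16.1 in sleep and 20.4, 22.3 and 26.2 in enforced wake, a rise of 0.63 (limma adjusted p = 0.023). The trend removed, Kcnh7 was at -0.27 and passed, and Kcnh3 was at 0.19 and did not. Kcnh5 fell by 0.22. Of the pair whose filter stretches are printed above, only the fall thus passed in both fits.

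Silent Kv subunits also split. Kcng1 had 3.99, 2.93 and 3.80 FPKM in sleep and 6.34, 6.12 and 7.52 in enforced wake, a rise of 0.75 (limma adjusted p = 0.0082), and of 0.42 with the trend removed. Kcnv1, which slows and reduces the current of its partners, had 53.9, 53.8 and 52.3 in sleep and 41.5, 42.8 and 39.7 in enforced wake, and fell by 0.36 (limma adjusted p = 0.0066), or by 0.19 with the trend removed. Kcnf1 rose from 46.7, 44.1 and 44.5 to 60.2, 61.2 and 56.8, by 0.39 (limma adjusted p = 0.0061), but with the trend removed it was at 0.19 (limma adjusted p = 0.0778). Kcng1 and Kcnv1 passed in opposite directions in both fits.

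**Figure D4:**
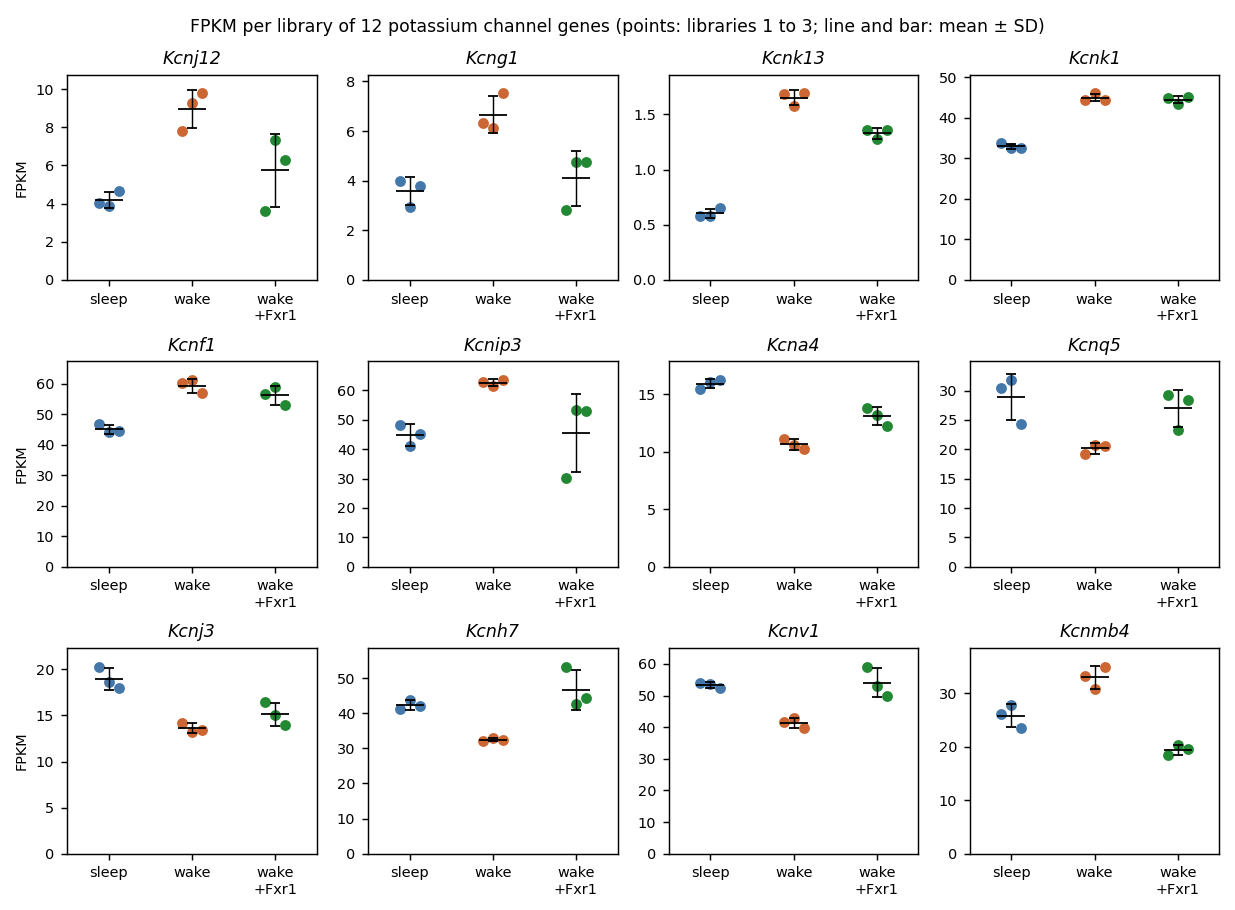
FPKM of 12 members in each library (points, libraries 1 to 3 from left to right within a group), with mean and SD of the 3 libraries, for sleep, enforced wake and enforced wake with Fxr1. The sleep and enforced wake points do not overlap in any of the 12 panels, but absence of overlap was part of the rule for giving library values and is no further support. Fxr1 library 1 is the lowest Fxr1 point for Kcnj12, Kcng1, Kcnip3 and Kcnmb4.

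Among auxiliary and ion-activated subunits, Kcnip3, a calcium-binding partner of Kv4 channels also known as a transcriptional repressor, had 48.1, 40.9 and 45.1 FPKM in sleep and 62.9, 61.3 and 63.5 in enforced wake. It rose by 0.48 (limma adjusted p = 0.0066) and by 0.29 with the trend removed. The sodium-activated pore subunit Kcnt1 had 8.33, 6.30 and 8.02 in sleep and 9.94, 11.0 and 14.6 in enforced wake, a rise of 0.58 (limma adjusted p = 0.0352) that did not pass with the trend removed. Kcnab1 had 38.8, 39.5 and 35.5 in sleep and 33.6, 30.6 and 32.1 in enforced wake, and fell by 0.23, while Kcnab2 rose by 0.41. Neither of them passed with the trend removed, where the third beta subunit, Kcnab3, passed as lower (-0.41). As deposited, protein-coding ENSMUST00000018614 of Kcnab3 did not fall, averaging 10.1 FPKM over the sleep libraries against 10.3 over the enforced wake libraries. The fall lay in its retained-intron transcript ENSMUST00000142328, whose mean went from 2.78 down to 0.763. Kcnmb4 rose by 0.34, and by 0.54 with the trend removed, which used the GC content of its longest transcript. Most of its FPKM lay on ENSMUST00000068233 (63.2% G and C), so this trend may not be that of its reads. That protein-coding transcript had means of 19.6 and 22.0 FPKM in sleep and enforced wake, and the non-coding ENSMUST00000164271 had 5.95 and 10.6.

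With any 1 of the 6 libraries left out, 12 of the 25 kept their call (Kcna4, Kcnb2, Kcnf1, Kcng1, Kcnh7, Kcnip3, Kcnj12, Kcnj3, Kcnk1, Kcnk12, Kcnk13 and Kcnv1). The count of members passing was 14 without enforced wake library 2 and 13 without enforced wake library 3, and none changed direction in any leave-out.

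Fxr1 overexpression was compared with GFP within enforced wake, to ask what Fxr1 changes on ribosomes in kept-awake animals. A single member of 69 tested passed, the BK beta subunit Kcnmb4, which makes neuronal BK channels slower to open. Kcnmb4 (ENSMUSG00000054934, chromosome 10, 116417861 to 116473878) had 33.3, 30.7 and 34.9 FPKM in enforced wake and 18.5, 20.3 and 19.6 with Fxr1. The Fxr1 libraries were all lower, also than the 26.1, 27.8 and 23.6 of sleep. In log2(FPKM + 1) it fell by 0.73 with an SE of 0.09 (limma adjusted p = 0.0409), by 0.93 with the GC trend removed (limma adjusted p = 0.0367) and by 0.70 without Fxr1 library 1 (limma adjusted p = 0.0060). The removal used the GC content of the longest transcript, while most of its FPKM lay on ENSMUST00000068233 (63.2% G and C), so the removed trend may not be that of its reads.

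The background of this comparison was low, at 0.412 percent of 14563 genes (0.0824 percent higher and 0.33 percent lower), and the groups did not overlap for 43 members (62.3%) and for 52.5 percent of all genes. With the GC trend removed the background was 0.323 percent (0.137 percent higher and 0.185 percent lower). The call of Kcnmb4 was lost when enforced wake library 1, 2 or 3 or Fxr1 library 2 or 3 was left out (highest limma adjusted p = 0.24), with the difference at -0.69 to -0.78. The larger fall was in ENSMUST00000164271, a transcript without a coding sequence. It had 11.2, 9.22 and 11.5 FPKM in enforced wake and 4.53, 1.41 and 2.37 with Fxr1. Its mean went from 10.6 to 2.77 FPKM, and that of the protein-coding ENSMUST00000068233 from 22.0 to 16.2. Over protein-coding transcripts alone the difference was -0.43 (limma adjusted p = 0.0996). The antisense Kcnmb4os2 overlaps the start of Kcnmb4, and no source used here says whether the authors' estimates used strand, so their reads may not be fully separated. It had 1.41, 2.02 and 2.25 FPKM in enforced wake and 1.15, 1.05 and 1.93 with Fxr1.

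Other calls depended on Fxr1 library 1 and, with that library kept, on whether all 9 libraries were fitted. Without Fxr1 library 1, 20 members passed, 15 lower and 5 higher, against 22.8 percent of all genes (17.1 percent lower and 5.69 percent higher). The largest were Kcnj11, the pore of ATP-sensitive channels, and Kcnj4 and Kcnh3. Kcnj11 had 6.03, 6.54 and 8.73 FPKM in enforced wake and 0.764, 2.89 and 3.48 with Fxr1, with a difference of -1.36 (limma adjusted p = 0.0878), or of -0.94 without library 1 (limma adjusted p = 0.0157) and -0.51 with the trend removed. Kcnj4 had 8.83, 21.3 and 21.8 FPKM with Fxr1 and a difference of -1.32, or of -0.92 without library 1 (limma adjusted p = 0.0049) and -0.59 with the trend removed. Kcnh3 had 4.97, 11.2 and 13.0 with Fxr1 and a difference of -1.24, or of -0.87 without library 1 (limma adjusted p = 0.0106) and -0.40 with the trend removed. None of the 3 passed limma with the trend removed and all libraries kept (adjusted p of 0.126 to 0.165). In each the Fxr1 libraries lay below all enforced wake libraries and library 1 was the lowest.

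Among the others that passed without library 1, Kcnmb4, Kcnk12, Kcnk9, Kcnab2, Kcnh2, Kcnc4, Kcng1, Kcnip2, Kcnj9 and Kcnip3 were lower, from -0.70 to -0.23, and Kcnh7, Kcnj2, Kcnt2, Kcnv1 and Kcns2 were higher, from 0.24 to 0.41. Kcnk12 had a mean of 0.351 FPKM with Fxr1, so it entered this test only through enforced wake. The order again followed GC content, with a Spearman correlation of -0.76 over the 69 members. With both the trend removed and library 1 left out, 3 members passed, all lower, against 1.9 percent of all genes. They were Kcnmb4 (-0.82), Kcnk9 (-0.61), a K2P channel sensitive to acid, and Kcnj4 (-0.44). For Kcnmb4 the limit of its GC content given above holds here too. Kcnc4, Kcng1, Kcnh2, Kcnip3, Kcnj9 and Kcnk12, which were lower without library 1, had differences of 0.01 to 0.17 once the trend was removed too, so their direction did not hold. With the trend removed and all libraries kept, 9 of the 20 had the opposite sign. The median difference of the members was -0.13 with all libraries and 0.13 with the trend removed, so no common direction of the members with Fxr1 held in both.

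Enforced wake with Fxr1 was set against sleep in a fit over all 9 libraries, in which the overexpressed protein and the state both differ. Of 67 members tested, 4 were higher and 1 was lower, against 7.92 percent of 14562 genes (3.27 percent higher and 4.65 percent lower), and 24 did not overlap (35.8%, against 32.7 percent of all genes). Kcnk13 had 1.36, 1.27 and 1.36 FPKM with Fxr1, above its 0.577 to 0.652 in sleep, and was higher by 0.54 (limma adjusted p = 0.0048). Kcnk1 had 44.8, 43.5 and 45.0, above its 32.6 to 33.7 in sleep, and was higher by 0.42 (limma adjusted p = 0.0072). These 2 K2P subunits were the only members whose call held with each library left out. This comparison shares its libraries with both before it.

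Kcnf1 had 56.8, 58.9 and 52.9 FPKM with Fxr1 and was higher than in sleep by 0.31 (limma adjusted p = 0.0344). Kcnj2, a strong inward rectifier, had 8.42, 7.73 and 8.07, against 6.52, 5.87 and 6.55 in sleep and 5.53, 6.09 and 5.88 in enforced wake, and was higher than in sleep by 0.31 (limma adjusted p = 0.0473). Its Fxr1 libraries lay above all 6 others. Kcnmb4 fell by 0.39 against sleep (limma adjusted p = 0.0328), a call lost under median-of-ratios scaling (-0.31, limma adjusted p = 0.0617). Its protein-coding ENSMUST00000068233 overlapped, at 13.4, 18.5 and 16.7 FPKM with Fxr1 and 18.0, 19.9 and 21.1 in sleep. Kcnj2 lost its call with any library left out, and with the trend removed (0.18), while the other 4 passed with the trend removed.

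Without Fxr1 library 1, 8 members passed against sleep: Kcnf1, Kcnj12, Kcnj6, Kcnk1 and Kcnk13 higher, and Kcna4, Kcnj3 and Kcnmb4 lower, against 9.88 percent of all genes (4.1 percent higher and 5.78 percent lower). With the trend removed 9 passed, 5 higher and 4 lower, against 12.8 percent of all genes (7.15 percent higher and 5.64 percent lower): Kcnf1, Kcng1, Kcnj12, Kcnk1 and Kcnk13 higher, and Kcna4, Kcnb2, Kcnj3 and Kcnmb4 lower. With both the trend removed and library 1 left out, 11 passed, against 11.4 percent of all genes. For Kcna4 the values with Fxr1, 13.8, 13.2 and 12.3 FPKM, lay between those of enforced wake and sleep without touching either. For Kcnj3 they were 16.5, 15.0 and 14.0, below all sleep libraries and overlapping with enforced wake.

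Single transcripts were tested because an estimate can pass from 1 transcript of a gene to another. In enforced wake against sleep, 6 of 135 member transcripts passed limma over all transcripts (4.44%, against 3.62 percent of 29116), and each was a protein-coding transcript of a gene that had passed too. The groups did not overlap for 61 of them tested (45.2%, against 32.8 percent of all transcripts). The 6 that passed were ENSMUST00000046765 of Kcnk1 (0.44) and ENSMUST00000170580 of Kcnf1 (0.39), which were higher, and ENSMUST00000037012 of Kcna4 (-0.57), ENSMUST00000170146 of Kcnb2 (-0.42), ENSMUST00000075052 of Kcnh7 (-0.36) and ENSMUST00000022967 of Kcnv1 (-0.36), which were lower. With Fxr1 in enforced wake, 1 of 138 passed (0.725%, against 0.895 percent of 28837): ENSMUST00000049788 of Kcnk13, higher by 1.21 (limma adjusted p = 0.0121). It had a mean of 0.00501 FPKM in enforced wake and 1.33 with Fxr1, so it met the minimum of 0.5 only through the group where it is high and had to differ. The groups did not overlap for 57 (41.3%, against 34.2 percent).

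That transcript did not follow its gene. Kcnk13 as a whole had a difference of -0.19 with Fxr1, and the 3 coding transcripts of Kcnk13 share 1 coding range and differ in their first exon, which ends at position 99964801, 99964815 or 99964852 of chromosome 12. The FPKM of a library sat nearly all on a single transcript: on ENSMUST00000160413 in enforced wake libraries 1 and 2, on ENSMUST00000177549 in enforced wake library 3 and sleep library 2, and on ENSMUST00000049788 in sleep libraries 1 and 3 and all Fxr1 libraries. Kcnj12 likewise alternated between ENSMUST00000089184 and ENSMUST00000108717 within each group.

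**Figure D5:**
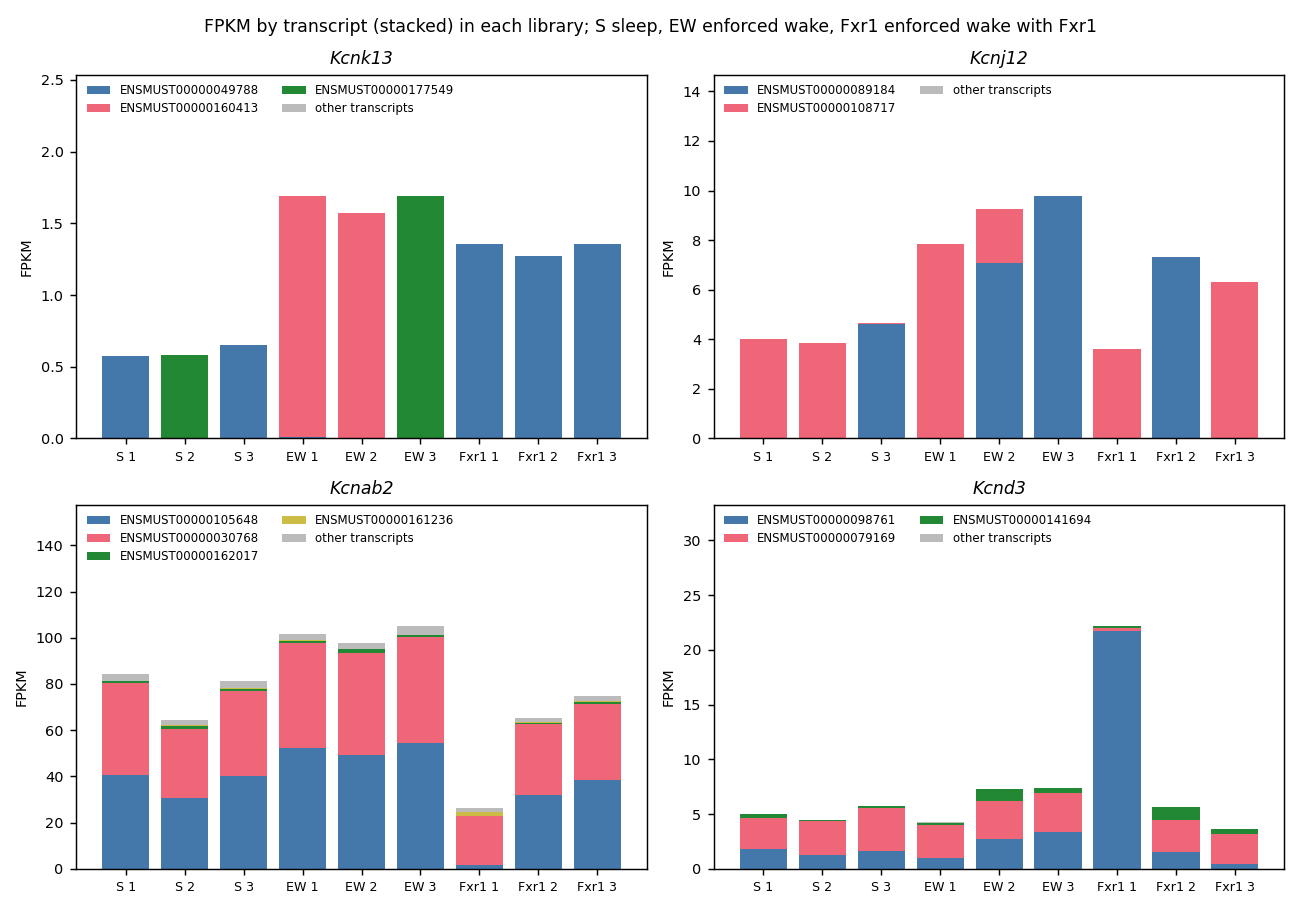
FPKM per library of 4 members, stacked by transcript (the 4 highest, the rest in grey). Kcnk13 and Kcnj12 swap transcripts between libraries, and in Fxr1 library 1 a single transcript gives the high total of Kcnd3. In that library ENSMUST00000105648 of Kcnab2 is nearly absent and ENSMUST00000030768 is at its lowest.

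In Kcnd3 a single transcript set the gene total of a library. Kcnd3 had 22.2 in Fxr1 library 1 against 3.67 to 7.40 elsewhere, of which ENSMUST00000098761 held 21.7. For Kcnab2 the total of that library was low: ENSMUST00000105648 had 1.78 FPKM in Fxr1 library 1 and 30.7 to 54.6 elsewhere. Its ENSMUST00000030768 was also at its lowest there, at 20.9 FPKM against 29.8 to 45.7 elsewhere. Gene values of both members are uncertain in that library.

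In the authors' deposited tables, none of 275 member transcripts with a q-value reached 0.05 in either comparison (14 of 79923 and 24 of 79087 transcripts did overall). With Fxr1, the lowest q-value of a member in the authors' deposited tables was 0.0532, for ENSMUST00000049788 of Kcnk13. It is the transcript that passed limma here.

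Of 26 genes whose proteins bind or anchor potassium channels or act beside them, 21 were tested in enforced wake against sleep, and 3 were higher and 3 lower (2 and 4 with the trend removed). This was 28.6% of those tested and so close to the 28.3 percent of all genes. Ank3, the ankyrin that anchors Kv7 channels at the axon initial segment, rose by 0.32, Cntn2, which gathers Kv1 channels beside the node, by 0.48, and Ncs1, a calcium sensor that binds Kv4, by 0.40. Dpp10, an extracellular partner of Kv4, fell by 0.47, from 46.4, 57.5 and 47.8 FPKM to 36.5, 37.5 and 34.2. Lrrc55, a BK gamma subunit, fell by 0.45 and Vapa, which tethers Kv2 clusters to the endoplasmic reticulum, by 0.24. Of these 6, Cntn2 and Ncs1 kept their call with each library left out. With Fxr1 in enforced wake none of 21 passed limma, and without Fxr1 library 1 there were 3 higher and 4 lower, against 5.69 percent and 17.1 percent of all genes. With Fxr1 against sleep, 1 of 21 was higher and 1 lower (9.52%, against 7.92 percent of all genes). The lower was Abcc8, the sulfonylurea receptor that binds Kcnj11, at -0.74 (-0.45 with the trend removed, where it passed).

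Of the Kir members known from glia, none of 2 passed in any comparison. Kcnj10, the main potassium channel of astrocytes, had 8.31, 8.10 and 9.15 FPKM in sleep, 6.40, 6.67 and 8.93 in enforced wake and 7.34, 5.84 and 6.54 with Fxr1. Its partner Kcnj16 had 0.869 to 3.20 FPKM over the 9 libraries. Astrocyte markers had sums of 167 to 198 FPKM for the sleep libraries, of 206 to 246 for enforced wake and of 138 to 149 for Fxr1, so the sums did not overlap between the groups. The markers did not share 1 order. Gfap, Aldoc, Slc1a3 and Gja1 had their highest mean in enforced wake and their lowest with Fxr1. For Gfap the means were 29.9, 36.9 and 11.4 FPKM in sleep, enforced wake and Fxr1, and Gjb6 had 10.6, 24.2 and 20.8. Only Aqp4, at 14.6, 12.1 and 9.80, had the same order as Kcnj10. The part of other cells in the members' values was not tested.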

How the data were processed

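The authors deposited 2 tables of FPKM per transcript and library, per the file headers, with their own fold change (a ratio), p-value and q-value. HISAT2 2.1.0, StringTie 1.3.4d and SAMtools 1.9 were used with GRCm38, per the submitters' processing notes; for the deposited ratio, p-value and q-value the tool is not given in the sources available here. Enforced wake columns were identical in both tables. FPKM were summed by gene symbol and tested on the log2(FPKM + 1) scale in limma 3.58.1 (R 4.3.3; lmFit, then eBayes with a trend on intensity). Tests were 2-sided, and p-values were adjusted by Benjamini-Hochberg over all genes or transcripts with a mean of at least 0.5 FPKM and a threshold of 0.05. A difference on this scale understates changes of low genes. With 3 against 3, an exact permutation test cannot give a p below 0.1. The trend removal fitted each library's deviation with splines (5 degrees of freedom) of GC content and log length. The fit tested on simulated data for enforced wake minus sleep recovered 85% of 200 genes changed by 1 among 14551, with 7.1% false calls. The simulated noise was independent between genes and held no GC trend, so this rate cannot stand for that of the calls reported. Members, classes and gene lists were chosen with earlier results of these data known. Named were members that passed, the 2 most abundant per class, and partners that passed. Library values were given for up to 8 passing members per direction with the largest difference and no overlap between the groups. Outside this rule, library values were also given for some other genes, among them Kcnc1, Kcnj10 and Kcnj11. Alternatives varied the pseudocount, filter, scaling, transcripts, libraries and replicate block. A few genes that this rule would name are not reported here.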

Additional observations from a re-analysis of the deposited data

How the results depend on the processing

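No member that passed in the fits as reported changed direction under any alternative run; of the 20 that passed for Fxr1 in enforced wake without Fxr1 library 1, 6 changed direction when the trend was removed too. For enforced wake minus sleep (25 members passing), the count was 16 with no filter on low values, 13 when fitted on all 9 libraries, 14 with the replicate block and the GC and length trend removed, and 13 to 20 with a library left out. For Fxr1 in enforced wake (1 passing), it was 0 with a pseudocount of 0.1, no filter, or protein-coding transcripts only, 20 when fitted on all 9 libraries, 3 with the trend removed and without Fxr1 library 1 (chosen after seeing the data), and 0 to 20 with a library left out; 31 of 69 had an unadjusted p under 0.05. For Fxr1 in enforced wake against sleep (5 passing), it was 9 with the trend removed, 1 when fitted on the 6 libraries compared, 11 with the trend removed and without Fxr1 library 1, and 2 to 8 with a library left out. Member transcripts passing (6 and 1) were 0 to 3 and 0 to 5 with a library left out, and 0 for Fxr1 at a mean of at least 2 FPKM. The cause of these changes was not tested, beyond the fewer samples of a leave-out.

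Replicate numbers showed no clear pairing of the libraries. Deviations of libraries with the same number had correlations of -0.26 to 0.18, and those with different numbers of -0.40 to 0.44. With 3 libraries per group this cannot exclude a pairing. With the replicate block, 19 members passed in enforced wake minus sleep, 0 for Fxr1 in enforced wake (0 also with the trend removed), 2 for Fxr1 against sleep, and 0 transcripts in both comparisons. Depth limits the 27 members with a mean under 0.5 FPKM.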
